A study of Mus musculus with 12 samples.

Results

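The genes described here are 9 secreted factors of the liver, namely Fgf21, Gdf15, Fst, Inhba, Inhbb, Inhbe, Angptl8, Lect2 and Fetub, which are stress hepatokines and members of the activin system. They were taken as the rows of the counts table whose Ensembl identifier carries these symbols in GENCODE, 9 of 55414 genes, and all 9 had enough reads to be tested. Bulk RNAseq was performed on whole livers of 12 female C57Bl/6J mice, which the study's methods give as 8 to 12 weeks old. All mice received a first intraperitoneal injection and, 6 h later, another. The 3 NaCl/PBS mice were given NaCl and then PBS, and the 3 NaCl/DEX mice were given NaCl and then 10 mg/kg dexamethasone (DEX, a synthetic glucocorticoid). The 3 FeSO4/PBS mice were given 300 mg/kg iron sulfate (FeSO4) and then PBS, and the 3 FeSO4/DEX mice 300 mg/kg FeSO4 and then 10 mg/kg DEX. Livers were collected 2 h after the second injection, 8 h in all, so that each DEX response is an early one. The question was how iron overload changes the liver transcriptome and the response to a glucocorticoid.

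Hepatokines are proteins that hepatocytes secrete and that act on the liver itself or on other organs. FGF21 signals through FGF receptors with the co-receptor beta-klotho, and GDF15 through GFRAL and RET in the hindbrain, where it lowers food intake. Activins are dimers of inhibin beta subunits, encoded by Inhba, Inhbb, Inhbc and Inhbe, that signal through activin receptors and SMAD2 and SMAD3, and follistatin, the product of Fst, binds and neutralises them. ANGPTL8 is a feeding-induced protein that regulates lipoprotein lipase. LECT2 and fetuin-B, the product of Fetub, are abundant liver plasma proteins. Fgf21, Gdf15 and Inhbe are known as genes that the integrated stress response can induce, in which ATF4 acts through a composite C/EBP-ATF element.

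Between 16335651 and 23827340 reads per liver were counted on genes, and 13857 genes were tested in 1 edgeR model of the 4 groups. A gene was called at a Benjamini-Hochberg adjusted p (FDR) of 0.05 or less, and log2 fold changes (LFCs) are given with their SE. Hepatocyte markers dominated every liver, with all 8 markers detected and a summed normalized count between 1898000 and 2903000. The sum was 1898000 to 2269000 in the NaCl/PBS mice and 2397000 to 2692000 in the NaCl/DEX mice. In the FeSO4/PBS and FeSO4/DEX mice it was 2470000 to 2755000 and 2747000 to 2903000. In bulk tissue, fewer cells of a type and less RNA per cell cannot be told apart. After FeSO4, 7 of 8 Kupffer cell and macrophage markers were lower and their sum moved from 7818 to 9138 in the NaCl/PBS mice to 4061 to 4827 in the FeSO4/PBS mice. Neutrophil markers moved the other way, with 4 of 5 tested markers higher and sums of 112 to 297 and 723 to 882, while Mpo was at 0 in both groups. Of the hepatocyte markers, 4 of 8 were higher after FeSO4 and 3 of 8 after DEX in NaCl mice. Of the cholangiocyte markers, 2 of 7 tested were higher and 1 lower after FeSO4, with sums of 807.5 to 932.9 and 1209 to 1496. Among the stellate cell markers, 2 of 8 rose and 2 fell after FeSO4. The endothelial list had 2 of 8 higher and 3 lower, and in each of the lymphocyte and the mesothelial and acinar lists 1 marker was lower. Among all tested genes, 27.2% were called higher and 27.3% lower after FeSO4, and 6.5% and 7.15% after DEX in NaCl mice. The stellate cell, endothelial and cholangiocyte counts were near the FeSO4 shares. The part of any marker difference in the results on the 9 genes was not tested.

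Promoter windows are shown first for Fgf21 and Angptl8, whose windows both match the C/EBP-ATF composite element, and for Gdf15, which had the largest rise. After FeSO4, Fgf21 rose and Angptl8 fell, and whether the match is related to either change was not tested. RefSeq windows of 300 bases, from 250 bases upstream of a start site to 50 bases downstream, were given for 8 of the 9 genes on GRCm38.p6. Fst had no window and was not searched. Each of their 10 windows had 1 exact match in GRCm39, whose coordinates are printed. The RefSeq start site is not always the outermost 5′ end of the gene in GENCODE. It lies 2049 bp inside that end for Fgf21, 6431 and 6792 bp for the 2 Gdf15 windows, 2563 bp for Inhbe and 1005 and 2845 bp for Fetub, and at most 218 bp from it for the other genes. Motif positions are counted from the RefSeq start site, and which start the liver uses was not measured. Fgf21 on the minus strand is at chr7:45264865-45265164, Gdf15 on the minus strand at chr8:71084696-71084995 and Angptl8 on the plus strand at chr9:21746556-21746855. Capitals mark motif matches on either strand, TGATGNAAT (the C/EBP-ATF composite element) or CACGTG (an E-box).
Fgf21: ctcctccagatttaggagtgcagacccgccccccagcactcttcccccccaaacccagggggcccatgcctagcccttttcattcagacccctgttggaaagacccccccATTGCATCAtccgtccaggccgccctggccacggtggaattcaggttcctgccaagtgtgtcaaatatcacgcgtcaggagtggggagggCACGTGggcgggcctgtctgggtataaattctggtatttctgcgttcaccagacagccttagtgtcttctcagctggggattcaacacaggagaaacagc
Gdf15: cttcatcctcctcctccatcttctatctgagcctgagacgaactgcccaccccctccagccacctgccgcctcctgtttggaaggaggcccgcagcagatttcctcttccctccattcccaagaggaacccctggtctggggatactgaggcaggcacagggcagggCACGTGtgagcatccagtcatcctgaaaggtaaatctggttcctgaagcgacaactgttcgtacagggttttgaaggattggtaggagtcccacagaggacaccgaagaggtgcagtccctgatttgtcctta
Angptl8: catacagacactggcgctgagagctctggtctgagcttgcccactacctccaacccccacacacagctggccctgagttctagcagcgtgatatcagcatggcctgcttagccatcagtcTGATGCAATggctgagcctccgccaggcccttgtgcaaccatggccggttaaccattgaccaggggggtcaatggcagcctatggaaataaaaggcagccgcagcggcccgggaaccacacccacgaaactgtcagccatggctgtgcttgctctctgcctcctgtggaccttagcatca

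The composite element was found in the Fgf21 window, on the opposite strand at bases -140 to -132 from the start site, and in the Angptl8 window at bases -130 to -122. It was found in 317 of all 32851 windows, which is 0.965%. The E-box was present in the Fgf21 window, at -50 to -45, and in 1 of the 2 Gdf15 windows, at -83 to -78, and 7.15% of all windows held it. The hexamer AGAACA, which glucocorticoid receptor sites share, was in the windows of Inhbb and Fetub and in 19% of all windows. TGACNNNGC, the core of the antioxidant response element, was in 1 Fetub window and in 12.4% of all windows. TGACGTCA, the cAMP response element, was in no window of the 8 genes that had one and in 1.79% of all windows. The motifs do not overlap each other in these windows. A match is a description of the letters in these short windows only.

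FeSO4 without DEX changed most of the 9 genes. Fgf21, Gdf15, Fst, Inhbb and Fetub were upregulated in the FeSO4/PBS mice compared with the NaCl/PBS mice, Inhba and Angptl8 were downregulated, and Inhbe and Lect2 were not called. These were 5 higher and 2 lower of 9, where 27.2% of all tested genes were called higher and 27.3% lower. The median LFC of the 9 genes was 0.39 and that of all tested genes -0.02. With libraries scaled by their size alone, 2285 genes were called higher and 5829 lower in place of 3770 and 3783, and the median LFC of all genes was -0.34, so that directions are given relative to the bulk of genes. For each of the 7 called genes, all FeSO4/PBS mice lay on 1 side of all NaCl/PBS mice. This is not separate from the calls, and its share over all tested genes was not counted.

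**Figure D1:**
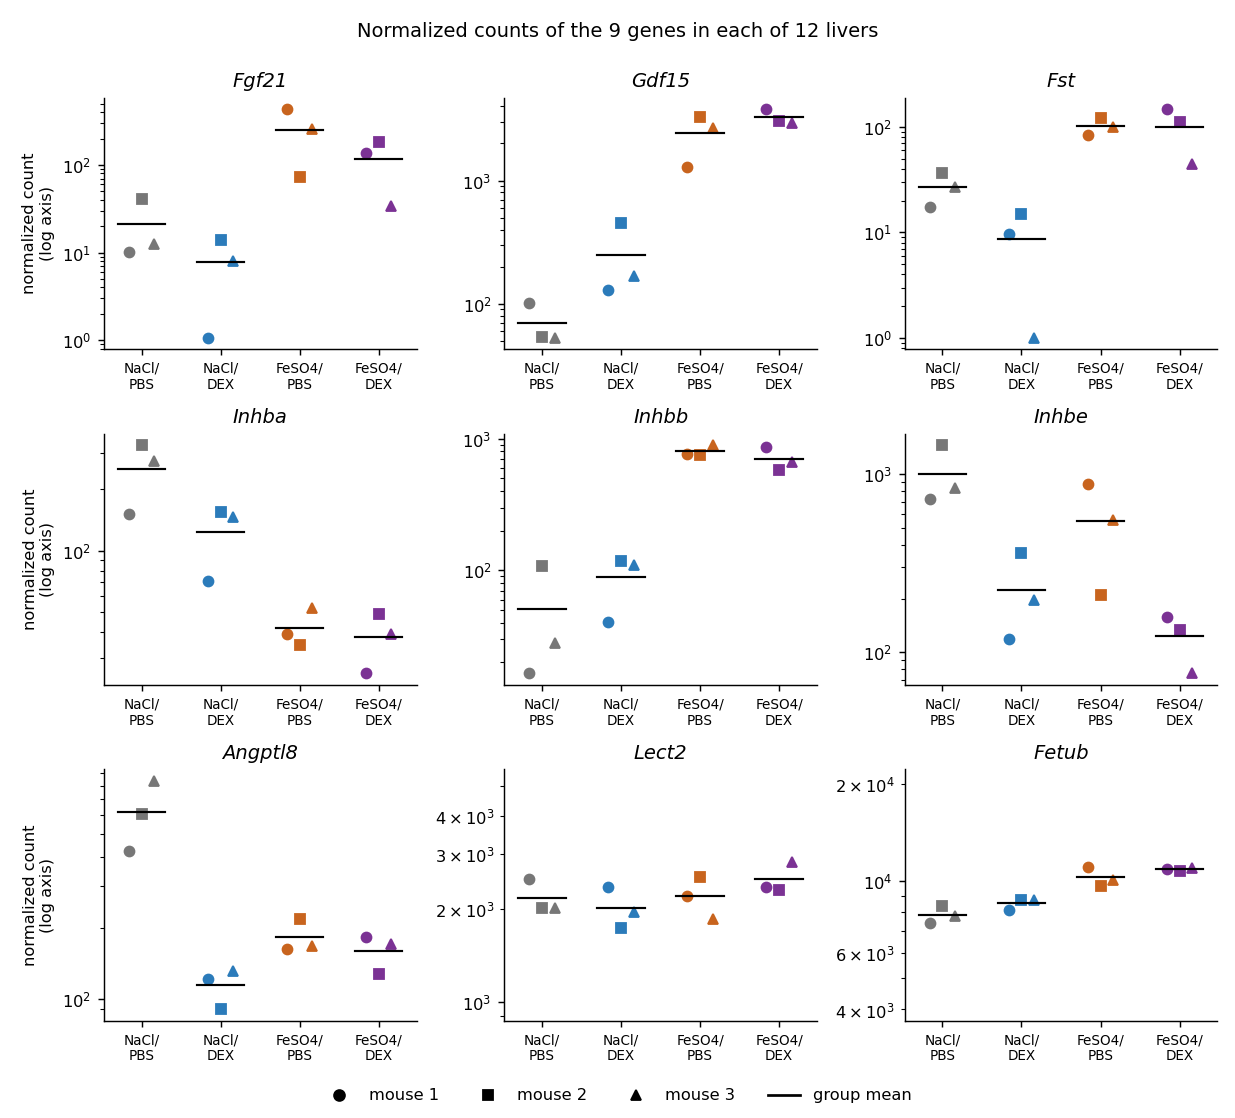
Normalized counts (TMM-scaled, log axis) of the 9 genes in each of the 12 livers, with 3 mice per group drawn as separate symbols and the group mean as a line. Fgf21, Gdf15, Fst and Inhbb of all FeSO4-treated mice lie above those of all NaCl/PBS mice except for Fgf21 in FeSO4/DEX mouse 3, and Inhba lies below.

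Among the endocrine stress hormones, Gdf15 (ENSMUSG00000038508, GRCm39 chromosome 8, 71082038 to 71091537, minus strand) had the largest rise of the 9 genes. The NaCl/PBS mice had normalized counts of 101, 54.2 and 53.3. The FeSO4/PBS mice had 1299, 3304 and 2664. The lowest FeSO4/PBS mouse was thus far above the highest control. The means were 69.4 ± 27.1 and 2423 ± 1020 (SD, n = 3), an LFC of 5.11 ± 0.44 (edgeR, FDR = 1.37e-06), or 34.4-fold.

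Fgf21 (ENSMUSG00000030827, chromosome 7, 45263301 to 45266963, minus strand) was expressed at a low level in the controls, with normalized counts of 10.1, 41.1 and 12.7 in the NaCl/PBS mice. The FeSO4/PBS mice had 433, 72.2 and 255. The groups did not overlap, but FeSO4/PBS mouse 2 was much closer to NaCl/PBS mouse 2 than the others were. The means were 21.3 ± 17.2 and 254 ± 181 (SD, n = 3), an LFC of 3.61 ± 0.72 (edgeR, FDR = 0.000884). The LFC was 2.97 without FeSO4/PBS mouse 1 and 4.47 without NaCl/PBS mouse 2, both still called. Fut1, which shares exon bases with Fgf21 on the other strand, had at most 11 reads in any liver.

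Within the FeSO4/PBS group, mouse 1 had the highest Fgf21 and Inhbe and the lowest Gdf15, and mouse 2 the lowest Fgf21 and Inhbe and the highest Gdf15.

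In the activin system, the beta subunits moved in different directions after FeSO4. Inhbb (ENSMUSG00000037035, chromosome 1, 119343193 to 119350021, minus strand), which encodes the beta B subunit, had normalized counts of 16.5, 109 and 27.9 in the NaCl/PBS mice. The FeSO4/PBS mice had 771, 751 and 894. The treated mice were close together, whereas NaCl/PBS mouse 2 was well above the other controls. The means were 51.0 ± 50.1 and 805 ± 77.5 (SD, n = 3), an LFC of 4.03 ± 0.47 (edgeR, FDR = 1.37e-05) and 5.19 without NaCl/PBS mouse 2.

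Inhba (ENSMUSG00000041324, chromosome 13, 16186373 to 16206206, plus strand), the beta A subunit gene, fell. The NaCl/PBS mice had normalized counts of 151, 329 and 275. In the FeSO4/PBS mice they were 39.3, 34.6 and 52.3. All treated mice were below all controls, with means of 42.1 ± 9.17 and 252 ± 91.3 (SD, n = 3). The LFC was -2.59 ± 0.35 (edgeR, FDR = 3.7e-05). This fall went along with the lower Kupffer cell and macrophage markers given above, and whether it is related to them was not tested.

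Inhbe (ENSMUSG00000047492, chromosome 10, 127184726 to 127190280, minus strand), the beta E subunit gene and, with its neighbour Inhbc at a distance of 608 bp, mainly expressed in liver, did not pass the test after FeSO4. The NaCl/PBS mice had normalized counts of 720, 1455 and 839. The FeSO4/PBS mice had 881, 210 and 552. The groups overlapped through FeSO4/PBS mouse 1, and the LFC was -0.87 ± 0.45 (edgeR, FDR = 0.115). Without FeSO4/PBS mouse 1 it was called, with an LFC of -1.40 (edgeR, FDR = 0.0211), and likewise with libraries scaled by size alone (-1.20, edgeR FDR = 0.0349). Inhbc, the beta C subunit gene, fell from 875 ± 176 to 548 ± 102 (SD, n = 3), an LFC of -0.68 ± 0.18 (edgeR, FDR = 0.00592). Reads of Inha, the alpha subunit that turns activins into inhibins, were too few for a test, with 0 to 1 reads in the NaCl/PBS and 1 to 14 in the FeSO4/PBS mice.

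Fst (ENSMUSG00000021765, chromosome 13, 114588731 to 114595521, minus strand), the activin antagonist, rose together with Inhbb. The NaCl/PBS mice had normalized counts of 17.3, 36.5 and 27.1. The FeSO4/PBS mice had 83.7, 120 and 99.5. The groups did not overlap, with means of 26.9 ± 9.60 and 101 ± 18.2 (SD, n = 3) and an LFC of 1.92 ± 0.47 (edgeR, FDR = 0.00374).

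The makeup of beta subunit mRNA was described per length, as each gene's share of the summed counts per kilobase of exon of Inhba, Inhbb, Inhbc and Inhbe. The Inhbb share was 2.07% ± 1.48 (SD, n = 3) in the NaCl/PBS mice and 41.0% ± 5.52 in the FeSO4/PBS mice. Over the same groups, the Inhbe share was 37.0% ± 3.50 and 21.3% ± 11.5, and the Inhba share 7.04% ± 1.83 and 1.28% ± 0.15. The Inhbc share was 53.9% ± 5.70 in the NaCl/PBS mice and 36.4% ± 6.24 in the FeSO4/PBS mice. In the NaCl/PBS mice, Inhbc and Inhbe together thus made up most of the beta subunit mRNA. By their means, Inhbb and Inhbc had the largest shares in the FeSO4/PBS mice, while Inhbe ranged from 10.6% to 33.4%. In the NaCl/DEX mice, Inhbc alone made up 79.1% ± 6.79 and Inhbe 10.9% ± 4.45. In the FeSO4/DEX mice, Inhbb was at 40.8% ± 1.39, Inhbc at 52.0% ± 0.76 and Inhbe at 5.79% ± 1.77. The shares carry no test of their own.

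**Figure D2:**
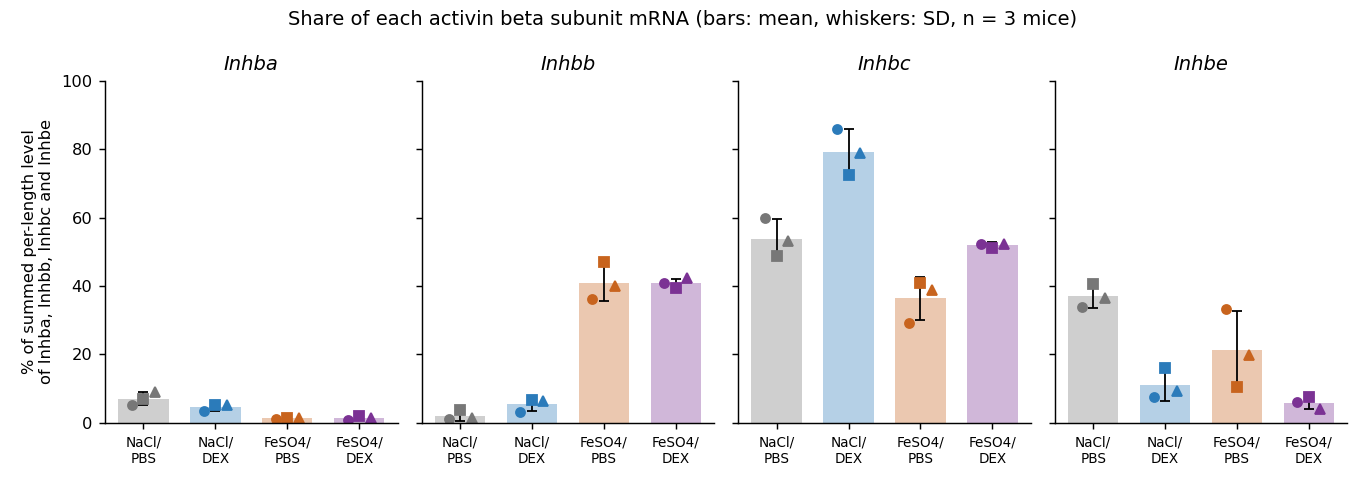
Share of each activin beta subunit gene, in percent of the summed per-length level of the 4 genes, by group, with bars for the mean, whiskers for the SD (n = 3) and symbols for single mice. Inhbb is between 36.2% and 47.0% in all FeSO4-treated mice and at most 6.51% in all mice given NaCl.

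Angptl8 (ENSMUSG00000047822, chromosome 9, 21746786 to 21748643, plus strand), the feeding-induced regulator of lipoprotein lipase, fell after FeSO4. The NaCl/PBS mice had normalized counts of 422, 603 and 837. The FeSO4/PBS mice had 162, 218 and 167. All treated mice were below all controls, with means of 182 ± 30.7 and 621 ± 208 (SD, n = 3) and an LFC of -1.76 ± 0.23 (edgeR, FDR = 2.78e-05). Angptl8 lies within Dock6, which is on the opposite strand, without shared exon bases, and the LFC of Dock6 was -0.37 (edgeR, FDR = 0.0803).

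The abundant plasma proteins moved little. Fetub (ENSMUSG00000022871, chromosome 16, 22736127 to 22758528, plus strand), which encodes a proteinase inhibitor of the cystatin family, had normalized counts of 7390 to 8400 in the NaCl/PBS mice and 9670 to 11090 in the FeSO4/PBS mice. The groups did not overlap, and the LFC was 0.39 ± 0.10 (edgeR, FDR = 0.00531). With libraries scaled by size alone, the LFC was 0.07 and Fetub was not called (edgeR, FDR = 0.593). Its neighbours Ahsg, which encodes fetuin-A, and Hrg were not called, with LFCs of 0.06 (edgeR, FDR = 0.681) and -0.10 (FDR = 0.539). Lect2 (ENSMUSG00000021539, chromosome 13, 56684477 to 56696569, minus strand) had normalized counts of 2011 to 2487 in the NaCl/PBS and 1856 to 2540 in the FeSO4/PBS mice. They overlapped fully, and the LFC of 0.02 had a 95% confidence interval of -0.30 to 0.34. Fbxl21, which shares exon bases with Lect2 on the other strand, had at most 43 reads.

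**Figure D3:**
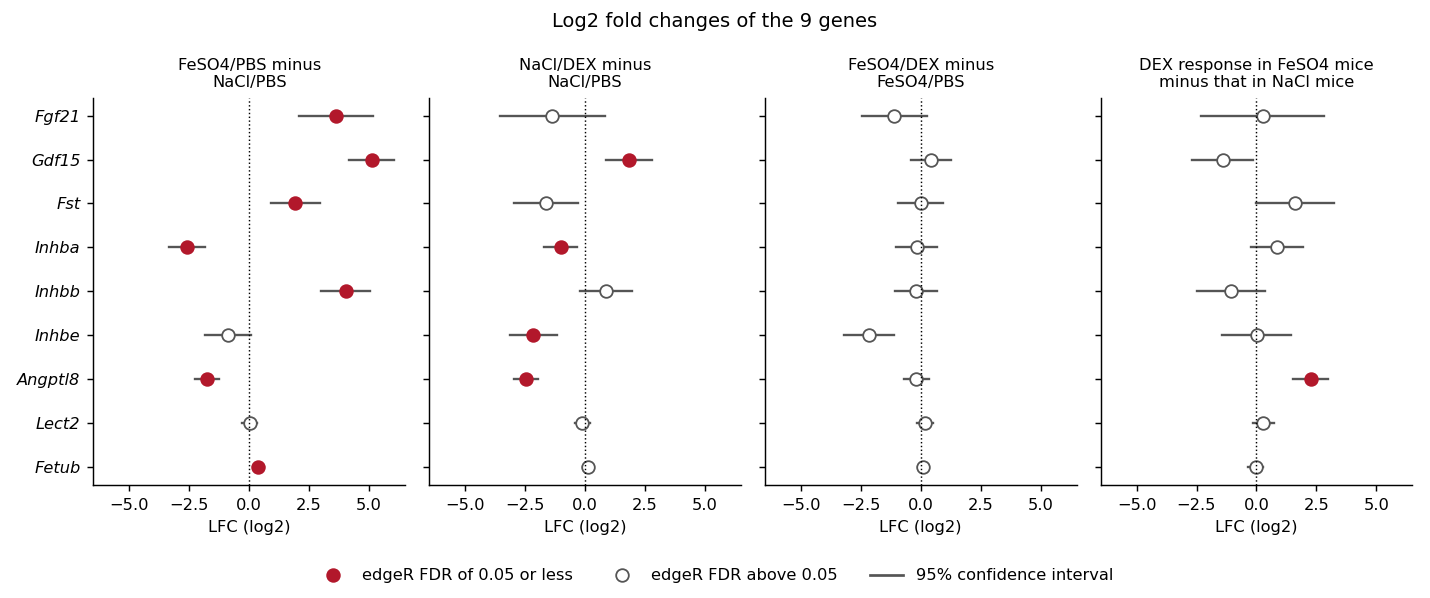
LFCs (log2) of the 9 genes, with 95% confidence intervals, in panels for FeSO4 without DEX, DEX in NaCl mice, DEX in FeSO4 mice and the difference between both DEX responses. Filled points have an edgeR FDR of 0.05 or less, which 7, 4, 0 and 1 of the 9 genes have in the 4 panels.

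DEX in NaCl mice changed fewer of these genes and mostly lowered them. Gdf15 was upregulated and Inhba, Inhbe and Angptl8 were downregulated, 1 higher and 3 lower of 9, where 6.5% of all tested genes were higher and 7.15% lower. The median LFC of the 9 genes was -1.02, against -0.03 for all tested genes. With libraries scaled by size alone, 618 genes were called higher and 1776 lower in place of 901 and 991, at a median LFC of -0.18, and the 4 called genes kept their directions. This comparison and that of FeSO4 share the NaCl/PBS mice, so the LFCs of both stand side by side and were not correlated.

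Angptl8 had the largest fall after DEX. The NaCl/DEX mice had normalized counts of 121, 90.3 and 131, all far below the NaCl/PBS mice given above. The mean was 114 ± 21.2 (SD, n = 3) and the LFC -2.44 ± 0.24 (edgeR, FDR = 1.82e-05). The fall was thus 5.44-fold after DEX and 3.39-fold after FeSO4.

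Inhbe had normalized counts of 118, 359 and 196 in the NaCl/DEX mice, all below the controls. Its LFC was -2.15 ± 0.46 (edgeR, FDR = 0.00738), and it stayed called without any 1 mouse. Inhbc, its neighbour on the same strand, had an LFC of 0.13 (edgeR, FDR = 0.693). Inhba had 70.9, 154 and 146 in the NaCl/DEX mice, which overlapped the controls. Its LFC was -1.02 ± 0.32 (edgeR, FDR = 0.0489), and the call was lost with DESeq2's size factors (FDR = 0.055), in a fit of the compared libraries alone (edgeR, FDR = 0.0561) and in 9 of 12 fits without 1 mouse, where the LFC ranged from -1.27 to -0.74 and the FDR reached 0.19 without NaCl/PBS mouse 2.

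Gdf15 had normalized counts of 129, 451 and 169 in the NaCl/DEX mice, all above the controls, with mouse 2 the highest. The LFC was 1.84 ± 0.45 (edgeR, FDR = 0.0147), but it was 1.09 without NaCl/DEX mouse 2 (FDR = 0.0878), and leaving out control mouse 2 or 3 of NaCl/PBS ended the call too (FDR = 0.0536 and 0.0692). Fst had 9.66, 15.0 and 1.01 in the NaCl/DEX mice, all below the controls. Its LFC of -1.61 ± 0.62 did not pass (edgeR, FDR = 0.0974) and passed with DESeq2 (FDR = 0.0236), at 1 to 16 reads per liver.

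The other genes were not called after DEX in NaCl mice. Fgf21 had normalized counts of 1.07, 14.1 and 8.06, at 1 to 15 reads, and an LFC of -1.36 with a 95% confidence interval of -3.55 to 0.83. Inhbb had 40.8, 119 and 110 and an LFC of 0.87 ± 0.51 (edgeR, FDR = 0.307). Without NaCl/PBS mouse 2, whose Inhbb was high, this LFC was 2.05 and called (edgeR, FDR = 0.0052). Lect2 and Fetub had LFCs of -0.11 ± 0.15 and 0.12 ± 0.10.

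In mice that had received FeSO4, DEX led to no call. None of the 9 genes and none of all 13857 tested genes (0%) passed between the FeSO4/DEX and FeSO4/PBS mice with edgeR. At an unadjusted p under 0.05 there were 900 genes, among them 1 of the 9, and DESeq2 called 10 genes, none of the 9. That gene was Inhbe. The FeSO4/DEX mice had normalized counts of 158, 133 and 76.1, all below the FeSO4/PBS mice, with means of 123 ± 42.2 and 548 ± 336 (SD, n = 3). The LFC was -2.15 ± 0.49 (edgeR, unadjusted p = 0.000703, FDR = 0.576).

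Gdf15 was at 3787, 3027 and 2931 in the FeSO4/DEX mice, with an LFC of 0.42 ± 0.39, and Inhbb at 865, 574 and 666, with an LFC of -0.20 ± 0.41. Both overlapped the FeSO4/PBS mice. Fgf21 was at 137, 182 and 34.5, an LFC of -1.11 with a 95% confidence interval of -2.46 to 0.24. Fst was at 147, 110 and 44.0 and Inhba at 25.1, 48.9 and 39.2, with LFCs of 0.00 ± 0.44 and -0.17 ± 0.40. Angptl8 was at 182, 128 and 170, close to the FeSO4/PBS mice. Its LFC was -0.19 with a 95% confidence interval of -0.70 to 0.33.

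The difference between the DEX responses was tested as an interaction. Of the 9 genes, 1 was called, where 6.18% of all tested genes were called in either direction. That gene was Angptl8, with a DEX response in FeSO4 mice that was 2.26 ± 0.34 (log2, SE) above the response in NaCl mice (edgeR, FDR = 0.00145). It stayed called under every alternative fit that gave it, and lay between 1.97 and 2.46 without any 1 mouse. For Inhbe the interaction was 0.00 with a 95% confidence interval of -1.44 to 1.44, so that the LFCs of -2.15 in NaCl and in FeSO4 mice were the same within a wide error. Gdf15 had an interaction of -1.41 with an interval of -2.69 to -0.14 (edgeR, FDR = 0.195), Fst of 1.60 with -0.04 to 3.24 (FDR = 0.245) and Inhbb of -1.07 with -2.47 to 0.34 (FDR = 0.391). Without NaCl/PBS mouse 2, Inhbb was called as well, at -2.25 (edgeR, FDR = 0.0157). The intervals of these genes are wide at 3 mice per group.

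The FeSO4 effect was also measured with DEX on board. Between the FeSO4/DEX and NaCl/DEX mice, Fgf21, Gdf15, Fst, Inhbb and Fetub were higher and Inhba was lower, 5 higher and 1 lower of 9, where 22.4% of all tested genes were higher and 20.9% lower. Library size alone gave 2151 higher and 4146 lower genes in place of 3103 and 2902. The LFCs were 3.86 ± 0.96 for Fgf21, 3.69 ± 0.40 for Gdf15, 3.52 ± 0.60 for Fst and 2.96 ± 0.45 for Inhbb, and none of the groups overlapped. This lack of overlap is not separate from the calls, and its share over all tested genes was not counted. The LFCs were -1.74 ± 0.37 for Inhba and 0.35 ± 0.10 for Fetub (edgeR, FDR = 0.00164 and 0.0117). Without NaCl/DEX mouse 2, the LFCs of Fgf21, Gdf15 and Fst were 4.62, 4.44 and 4.23. Fetub was not called without FeSO4/DEX mouse 3 (FDR = 0.0556) or NaCl/DEX mouse 1 (FDR = 0.0518), or with libraries scaled by size alone (LFC of 0.16, FDR = 0.22). Inhbe, Angptl8 and Lect2 were not called, with LFCs of -0.87 ± 0.50, 0.49 ± 0.25 and 0.31 ± 0.15. Without a filter on low counts, Inhbe and Angptl8 were called (edgeR, FDR = 1.29e-06 and 0.0438) and Fetub was not (FDR = 0.0785).

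The levels of different genes can be compared only per length, here as TMM-scaled CPM per kilobase of exon. In the NaCl/PBS mice, Fetub was the highest at 117 ± 7.53 (SD, n = 3), followed by Lect2 at 61.0 ± 7.70, Angptl8 at 33.0 ± 11.1 and Inhbe at 9.53 ± 3.74, with no overlap between neighbours. Inhba at 1.79 ± 0.65, Gdf15 at 1.55 ± 0.60, Fgf21 at 0.79 ± 0.64, Inhbb at 0.60 ± 0.59 and Fst at 0.29 ± 0.10 came next, and each overlapped the following gene. In the FeSO4/PBS mice, Gdf15 at 54.0 ± 22.8 (28.98 to 73.7 over the 3 mice) overlapped Lect2 at 61.8 ± 9.62 (52.15 to 71.39). A gene of low level in controls thus overlapped an abundant plasma protein gene, although its lowest mouse was below all Lect2 values. Angptl8 at 9.71 ± 1.64, Inhbb at 9.45 ± 0.91 and Fgf21 at 9.40 ± 6.69 were level with each other, and Inhba was the lowest at 0.30 ± 0.07. In the FeSO4/DEX mice, Gdf15 at 72.5 (65.4 to 84.5 over the 3 mice) and Lect2 at 70.0 (64.5 to 79.3) overlapped. The mean of Gdf15 was above Lect2 on this scale and below it when the longest transcript was used as the length. In the NaCl/DEX mice, Angptl8 at 6.08 ± 1.13 and Gdf15 at 5.57 ± 3.92 overlapped, and Fst was the lowest at 0.09 ± 0.08.

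**Figure D4:**
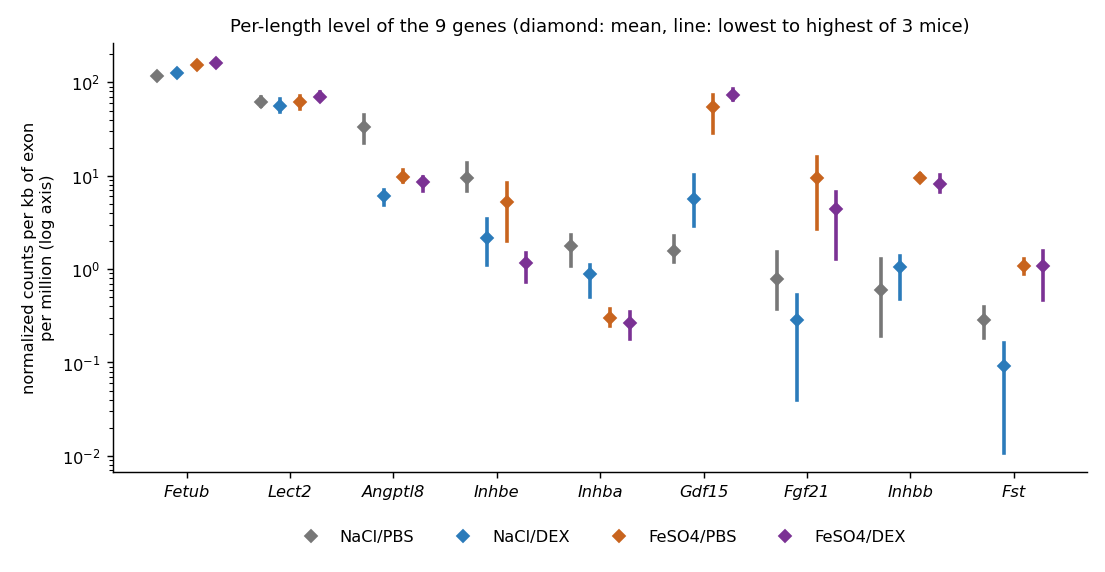
Level of the 9 genes per length, in TMM-scaled CPM per kilobase of exon (log axis), for each group, with a diamond for the mean and a line from the lowest to the highest of 3 mice. Gdf15 moves from 1.55 in the NaCl/PBS mice to 54.0 in the FeSO4/PBS mice, while Fetub and Lect2 are the 2 highest genes in the NaCl/PBS mice and keep to a narrow range.

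The partners and relatives of these genes moved in both directions. Of 9 tested genes among other subunits, binders and relatives, 2 were higher and 3 lower after FeSO4, where 27.2% of all tested genes were higher and 27.3% lower. Angptl4, an inhibitor of lipoprotein lipase of the same family as Angptl8, rose with an LFC of 1.54 ± 0.25 (edgeR, FDR = 0.000189), opposite in direction to Angptl8. Wfikkn1, which encodes a secreted binder of GDF8 and GDF11, rose from a mean of 3.73 to 55.0 (LFC of 3.82, FDR = 5.88e-05), and Inhbc, Fgf1 and Fgf2 were lower. Wfikkn1, Fgf1 and Fgf2 are named after their values were seen. After DEX in NaCl mice, 2 of the 9 were higher, Angptl4 with an LFC of 0.96 and Fgf1 with 1.00. In that comparison, 6.5% of all tested genes were higher and 7.15% lower.

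Of 13 tested receptors, 3 were higher and 4 lower after FeSO4, close to the shares of all tested genes (27.2% and 27.3%). The type II activin receptor gene Acvr2b fell (LFC of -1.85 ± 0.29, edgeR FDR = 0.000108), and the type I receptor gene Acvr1b rose (0.70 ± 0.19, FDR = 0.00645). Tgfbr3, a co-receptor of TGF-beta family ligands, rose (0.76 ± 0.14, FDR = 0.000474). Of the FGF receptors, Fgfr1 rose (0.94 ± 0.20, FDR = 0.00109) and Fgfr3 fell (-1.31 ± 0.20, FDR = 0.000112), as did Met, the receptor of hepatocyte growth factor that also binds LECT2 (-0.90 ± 0.13, FDR = 4.76e-05). Klb, which encodes beta-klotho, was not called (LFC of -0.21, FDR = 0.457), and Gfral and Ret had no reads in the NaCl/PBS and FeSO4/PBS mice. After DEX in NaCl mice, 1 receptor was higher, Tgfbr3, and 4 were lower, Acvr1b, Acvr2b, Fgfr4 and Met. In that comparison, 6.5% of all tested genes were higher and 7.15% lower. The receptor count of 5 was 1 when NaCl/PBS mouse 2 was left out and 7 when FeSO4/PBS mouse 1 was. Acvr1b thus rose after FeSO4 and fell after DEX (LFC of -1.18, edgeR FDR = 0.00119). Klb and Fgfr4 are named after their values were seen.

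Of 14 tested signal mediators and inhibitors, 4 were higher and 4 lower after FeSO4, again close to the shares of all tested genes. Smad2 and Smad3, the activin-responsive SMADs, fell with LFCs of -0.84 ± 0.20 and -1.14 ± 0.25 (edgeR, FDR = 0.00271 and 0.00175), and so did the inhibitory Smad7 (-0.99 ± 0.32, FDR = 0.018). The SMAD co-repressor genes Tgif1 and Skil rose with LFCs of 1.78 ± 0.21 and 1.40 ± 0.18, and Dusp6, a phosphatase of ERK signalling downstream of FGF receptors, with 1.10 ± 0.22 (edgeR, FDR = 1.48e-05, 2.94e-05 and 0.000909). Of these 14, 3 were higher after DEX in NaCl mice (Skil, Spry4 and Bambi) and 2 lower (Smad7 and Ski). The shares of all tested genes after DEX were 6.5% higher and 7.15% lower. Spry4, Bambi and Ski are named after their values were seen.

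Of 20 tested other hepatokines, 9 were higher and 2 lower after FeSO4, where 27.2% and 27.3% of all tested genes were. Igfbp1, an IGF-binding protein gene of fasted and stressed liver, rose with an LFC of 4.61 ± 0.39, Lcn2, which encodes the siderophore-binding lipocalin 2, with 3.88 ± 0.47, and Hamp, the gene of the iron hormone hepcidin, with 1.32 ± 0.33 (edgeR, FDR = 2.07e-06, 3.32e-05 and 0.0042). Enho and Selenop fell with LFCs of -1.04 ± 0.19 and -0.28 ± 0.11 (edgeR, FDR = 0.000484 and 0.0461). DEX in NaCl mice raised 4 of the 20, Igfbp1, Lcn2, Tsku and Smoc1, where 6.5% of all tested genes were higher. Tsku and Smoc1 are named after their values were seen.

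Of 13 tested genes of the integrated stress response, 5 were called after FeSO4, all higher, where 27.2% of all tested genes were higher and 27.3% lower. These were Atf3, with an LFC of 5.75 ± 0.58, Chac1 with 3.58 ± 0.25, Ppp1r15a with 2.50 ± 0.18, Cebpb with 2.08 ± 0.16 and Atf4 with 1.64 ± 0.20 (edgeR, FDR from 1.41e-07 to 1.53e-05). Ddit3, Trib3 and Asns, which ATF4 can also induce, were not called, with LFCs of -0.46 ± 0.32, -0.34 ± 0.25 and 1.00 ± 0.44. The list had 8 higher genes without FeSO4/PBS mouse 2, and 5 higher and 3 lower genes with libraries scaled by size alone. The 1 gene of this list called after DEX in NaCl mice was Cebpb, which was higher with an LFC of 1.29 ± 0.16 (edgeR, FDR = 0.00012). The shares of all tested genes after DEX were 6.5% higher and 7.15% lower. Atf4, Cebpb, Ddit3, Trib3 and Asns are named after their values were seen.

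Of 16 known regulators of the 9 genes, 5 were higher and 6 lower after FeSO4, where 27.2% and 27.3% of all tested genes were. Ppara, whose product drives Fgf21 in fasting, fell with an LFC of -1.09 ± 0.25 (edgeR, FDR = 0.00255), while Fgf21 rose. Nr1h3, the gene of LXR-alpha, and Nr3c1, that of the glucocorticoid receptor, fell with LFCs of -0.89 ± 0.11 and -0.89 ± 0.15 (edgeR, FDR = 2.1e-05 and 0.000184). Foxo1, Creb3l3, the gene of CREBH that can induce Fgf21, and Xbp1 rose with LFCs of 1.83 ± 0.13, 1.21 ± 0.13 and 0.85 ± 0.21 (edgeR, FDR = 1.6e-07, 5.34e-06 and 0.00399). Trp53 was not called (LFC of 0.21, FDR = 0.419). After DEX in NaCl mice, Foxo1 was higher and Srebf1, Nfe2l2 and Egr1 were lower, where 6.5% of all tested genes were higher and 7.15% lower. Srebf1, the gene of the lipogenic factor SREBP1, had an LFC of -1.15 ± 0.18 in that comparison (edgeR, FDR = 0.000778). After FeSO4, Srebf1 was not called (LFC of -0.28, edgeR FDR = 0.21). Trp53, Srebf1, Nfe2l2 and Egr1 are named after their values were seen.

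Genes with the most similar profile were sought by Pearson's r of log2 CPM over the 12 livers, which reflects the differences between the 4 groups as well as those between mice. Gdf15 was closest to Setd1a, Tspyl2 and Gmeb2 (r from 0.985 to 0.988), and Inhbb to Serpina3f, Becn1 and Rasd1 (0.978 to 0.987). Fgf21 was closest to Traf7, Ddx19b and Casp8 (0.955 to 0.969) and Fst to Impdh1, Helb and Slc13a5 (0.963 to 0.974). For the genes that fell, Inhba was closest to Zfp108, Tmem143 and AW146154 (0.959 to 0.969), Angptl8 to Gbp4, Rab3il1 and Ephb4 (0.927 to 0.946) and Inhbe to Bin2, E2f2 and R3hcc1l (0.895 to 0.901). Fetub was closest to Supt5, Rrm2 and Supt6 (0.971 to 0.972), and Lect2 to Gcdh, Ndrg2 and Cd1d1 (0.870 to 0.933). Among the 9 genes themselves, Inhbb and Fetub had the highest r, 0.953, and Gdf15 and Inhba the lowest, -0.906. All these r values are on TMM-scaled CPM. The LFC of Fetub after FeSO4 was 0.39 with that scaling and 0.07 with library size alone. How far the r values of Fetub depend on the scaling was not tested.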

How the data were processed

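Whole-liver RNA of 12 mice, 3 in each of 4 groups, was sequenced as stranded mRNA libraries. The authors mapped single-end reads to mm39 with STAR 2.7.10b and deposited raw counts per gene for 55414 Ensembl genes, without normalization. The annotation release that was counted, v28 as the study gives it, is not the vM39 release used here for names, positions and exon lengths, and which strand setting gave the deposited counts is not given in the sources used here. Reads of genes that overlap on opposite strands are therefore uncertain.

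The analysis ran in R 4.3.3. With edgeR 4.0.16 (which builds on limma 3.58.1), all 4 groups entered 1 quasi-likelihood fit after edgeR's low-count filter (13857 genes) and TMM scaling, with Benjamini-Hochberg adjustment over all tested genes and a threshold of 0.05. LFCs used a prior count of 0.125. Normalized counts are TMM-scaled at the mean effective library size. The common biological coefficient of variation was 0.169. TMM factors were 1.14 to 1.16 for NaCl/PBS livers and 0.871 to 0.952 after FeSO4 (either second injection). No library was a copy of another: within groups, pairs of mice gave a chi-square of 18.4 to 90.5 per gene. FeSO4/PBS mouse 1 differed most from its group, with 90.5 and 72.1 against mice 2 and 3, which gave 24.3 between them. Pairs in the other groups gave 18.4 to 37.4. The p-values set a group difference against a spread between mice that was estimated from all 12 livers and partly shared between genes. The number of mice limits the precision. Known changes in simulated counts were used to test the script. Python 3.11.15 and matplotlib 3.10.9 were used for sequences and plots.

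The 9 genes and all lists were chosen with earlier results of these data known. Named genes of each list are those called after FeSO4 with the 3 largest rises and falls, a mean normalized count of at least 100 in the higher group and no overlap, and for each of the 9 genes its neighbours and the 3 genes of most similar profile, without Gm and Rik genes. Others are named as seen afterwards. Alternatives were DESeq2 1.42.0, its size factors, library size alone, no low-count filter, a minimum of 10 counts per library, a block for the replicate number, the compared libraries alone, an LFC beyond 1, other length measures, and each mouse left out in turn.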

Additional observations from a re-analysis of the deposited data

Results flagged for a closer look

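The DEX response of Angptl8 differed between NaCl and FeSO4 mice, and the difference itself was tested. In NaCl mice the LFC was -2.44 and in FeSO4 mice -0.19, a difference of 2.26 ± 0.34 (log2, SE, edgeR's interaction contrast, FDR = 0.00145). Without any 1 mouse it lay between 1.97 and 2.46, with an FDR of at most 0.00531. All 3 NaCl/DEX mice were below all 3 NaCl/PBS mice, while the FeSO4/DEX mice overlapped the FeSO4/PBS mice, which were already below all NaCl/PBS mice. The reads behind these values ranged from 94 to 989 per liver.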

How the results depend on the processing

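The counts of the 9 genes called after FeSO4 (7) and after FeSO4 in DEX mice (6) kept within 1.5 times their size in every alternative run, and were 7 to 8 and 5 to 6 when each mouse was left out. Without a low-count filter, Inhbe and Angptl8 were also called between the FeSO4/DEX and NaCl/DEX mice (FDR = 1.29e-06 and 0.0438), Fetub was not (FDR = 0.0785), and Inhbe was called after FeSO4 as well (FDR = 5.77e-08, all edgeR). The calls of Gdf15, Inhbb, Fst, Inhba, Fgf21 and Angptl8 after FeSO4, of Inhbe and Angptl8 after DEX in NaCl mice and the Angptl8 interaction held in all alternatives that gave them. After DEX in NaCl mice, 2 to 4 of the 9 genes were called without 1 mouse. The count was 2 without NaCl/DEX mouse 2 and also without NaCl/PBS mouse 3, where Gdf15 and Inhba were not called. For the difference between the DEX responses it was 1 to 2, the 2 without NaCl/PBS mouse 2.

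Without a filter on low counts, 7 of the 9 genes were called after DEX in NaCl mice, 2 after DEX in FeSO4 mice (Fgf21 and Inhbe) and 4 for the difference between the DEX responses. In that fit the prior degrees of freedom were infinite (5.93 with the filter), so that no gene kept a quasi-likelihood spread of its own. The spread used for Inhbe was 0.74 in place of 6.78. Over all genes it called 99 higher and 71 lower between the FeSO4/DEX and FeSO4/PBS mice, where DESeq2 called 5 and 5 and edgeR with the filter 0. For the difference between the DEX responses DESeq2 called 562 higher and 747 lower and the fit without a filter 683 and 776, in place of 857 in all, and the compared libraries alone gave 1338 and 1421 after DEX in NaCl mice. Without FeSO4/PBS mouse 1, which is not in that comparison, the shared fit gave 1284 higher and 1259 lower after DEX in NaCl mice. Without any other FeSO4-treated mouse it gave 888 to 947 higher and 869 to 1042 lower. The cause of these last differences was not tested.

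The lists moved more. Other subunits after FeSO4 had 3 called genes with at least 10 counts in every library, 3 with the compared libraries alone and 3 with an LFC beyond 1, and 3 to 6 without 1 mouse, and after DEX 1 with an LFC beyond 1 and 1 to 2 without 1 mouse. Receptors had 2 after FeSO4 and 2 after DEX with an LFC beyond 1, and after DEX 1 when NaCl/PBS mouse 2 was left out and 7 when FeSO4/PBS mouse 1 was. Mediators had 4 after FeSO4 with an LFC beyond 1, and after DEX 3 with that rule, 8 with the compared libraries alone and 2 to 6 without 1 mouse. Other hepatokines had 6 after FeSO4 with an LFC beyond 1 and 6 to 12 without 1 mouse, and after DEX 7 without the filter and 2 to 7 without 1 mouse. Stress response genes had 8 after FeSO4 with library size alone, 8 without the filter and 5 to 8 without 1 mouse, and after DEX 2 with DESeq2, 3 without the filter, 3 with the compared libraries alone and 1 to 2 without 1 mouse. Regulators had 4 after FeSO4 with an LFC beyond 1, and after DEX 8 with library size alone, 7 without the filter, 8 with the compared libraries alone and 3 to 6 without 1 mouse.

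Changes of sign were seen only for LFCs that were not called. The Inhbe interaction was -0.03 with DESeq2 (-0.0334) and with its size factors (-0.0342), -0.0121 without the filter and -0.39 to 0.52 without 1 mouse. Lect2 after FeSO4 was -0.30 with library size alone, -6e-04 with at least 10 counts in every library and -0.0944 to 0.13 without 1 mouse, and after DEX -0.23 to 0.0092. Fetub was -0.0369 after DEX and 0.0912 for the interaction with library size alone. Without 1 mouse, the Fgf21 interaction ranged from -0.63 to 1.01, Fst after DEX in FeSO4 mice from -0.40 to 0.34 and Inhba from -0.41 to 0.0729.

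With the replicate number as a block, the Inhbe interaction was -0.05 (-0.0495), and 44 other results kept their direction and call. The deviations of 18 pairs of mice with the same number correlated at -0.0919 to 0.129, 2 of them above 0.1. Those of 36 pairs with different numbers correlated at -0.151 to 0.111. Between the NaCl/DEX and NaCl/PBS mice, same-number pairs gave 0.129, 0.109 and 0.052, and different-number pairs -0.151 to 0.0302. This check cannot settle whether the numbers pair mice, and the labels name no shared cage or day.

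Fgf21 and Fst had 1 to 16 reads in the NaCl/DEX livers, so that their fold changes there depend on few reads.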
